A study of Homo sapiens with 19 samples.

Results

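To ask what separates cells that lost PRC2 activity from cells that kept it, 12 of the 19 RNA-seq samples of the series were compared, 6 of each class. The 6 PRC2-null samples comprised EED-/- H1 cells, EZH2-/-/EZH1-/- H1 cells and SUZ12-/- H1 cells, 2 samples each. The 6 retaining samples comprised EZH1-/- H1 cells, EZH2-/- H1 cells and wild-type (WT) H1 cells, again 2 each. H1 is an established hESC line, and all 12 samples share it. Each gene had been targeted by CRISPR/Cas9 with a homologous donor carrying a puromycin or neomycin cassette that replaced a functional domain, and the double knockout came from EZH2-/- H1 cells by a further round of targeting after Cre had removed the first cassette. All lines were grown in mTeSR1 on matrigel. The classes follow the study's division of the lines by whether H3K27me3 was lost or kept on western blots. According to the study, EZH1-/- and EZH2-/- H1 cells kept the mark at a lower level than WT H1 cells. The study also describes the PRC2-null lines as differentiating in culture. The labels distinguish both samples of a knockout line by clone or by passage. Whether these were independent cultures is not stated, so the spread between them may be partly technical. The other 7 samples, H1-EED-/-/EED-OE cells with doxycycline (DOX), which drives an EED transgene, and on days 8, 12, 16, 20, 24 and 28 after its withdrawal, served as a separate series from H1 cells in which the transgene was introduced first and endogenous EED was knocked out afterwards.

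PRC2 is the complex that methylates lysine 27 of histone H3, and its H3K27me3 mark holds developmental genes silent in stem cells. EED, which binds the mark, and SUZ12, a scaffold, are core subunits, and EZH1 and EZH2 are alternative catalytic subunits that can stand in for each other. Human embryonic stem cells (hESCs) keep the genes that pattern the embryo, HOX genes among them, under this mark while POU5F1, SOX2 and NANOG maintain the undifferentiated state.

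Values are TPM, transcript abundances scaled for gene length and library, which have the same sum in each sample, so the sequencing depth is unknown. Differences are of mean log2(TPM + 1), PRC2-null minus retaining, ± SE, with the adjusted p of limma, and they understate changes of weakly expressed genes. Of 33382 genes listed, 19100 reached 1 TPM in at least 2 of the 12 samples and were tested. Genes above 0 TPM numbered 21326 to 23012 in the PRC2-null and 20350 to 21564 in the retaining samples, ranges that overlap, whereas genes at 1 TPM or more numbered 16184 to 17043 and 14389 to 15704, which do not. The SD of the log2 difference between both samples of a line was 0.33 in WT, 0.32 in EZH1-/-, 0.58 in EZH2-/-, 0.59 in EED-/-, 0.32 in SUZ12-/- and 0.77 in EZH2-/-/EZH1-/- H1 cells, so EZH2-/-/EZH1-/- was the least uniform line.

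The targeted genes came first. EED was at 14.2 and 22.4 TPM in EED-/- H1 against 17.3 and 22.0 in WT H1 cells, and SUZ12 at 22.9 and 20.8 in SUZ12-/- H1 against 25.2 and 27.9. EZH2 was at 46.9 and 22.0 TPM in EZH2-/- H1, 31.3 and 20.0 in EZH2-/-/EZH1-/- H1 and 54.5 and 58.9 in WT H1 cells. EZH1 was at 12.5 and 17.1 TPM in EZH1-/- H1, 9.37 and 6.78 in EZH2-/-/EZH1-/- H1 and 13.7 and 14.3 in WT H1 cells. No targeted gene was near 0 in its own knockout. Since only part of each gene was removed, transcript levels over the whole gene do not check the labels, and the lines are named as labelled.

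The labelled cell type was checked on 10 pluripotent stem cell markers (POU5F1, SOX2, NANOG, LIN28A, DPPA4, TDGF1, ZFP42, L1TD1, PRDM14 and DNMT3B). Their summed level was 6501 to 7774 TPM in the retaining samples and 189.6 to 513 TPM in the PRC2-null samples, and each of the 10 separated the classes downward. Of the markers of other cell types, all 4 of endoderm lay above (summed level 124 to 267 TPM against 0.41 to 0.81 TPM), as did all 4 of liver and yolk sac (1261 to 20235 TPM against 4.39 to 14.7 TPM, with TTR at 0 in all retaining samples). Endothelial (3 of 4), trophoblast (3 of 4), smooth muscle (2 of 4), cardiac (1 of 4) and neural progenitor markers (1 of 4) lay above in part, and those of blood, neural crest, epidermis, skeletal muscle and germ cells did not. The summed level was 46.9 to 489 TPM against 33.5 to 136 TPM for the endothelial, 75.7 to 403 TPM against 12.1 to 14.8 TPM for the trophoblast and 65.6 to 150.3 TPM against 4.49 to 26.6 TPM for the cardiac markers. The part of such cells in the results below was not tested. In bulk RNA, fewer cells of a type and less RNA per cell cannot be told apart.

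All 6 PRC2-null samples lay above all 6 retaining samples for 4629 genes (24.2% of those tested) and below for 2539 (13.3%), and the groups overlapped for 11932 (62.5%). In limma, 2456 genes (12.9%) were higher and 940 (4.92%) lower in the PRC2-null lines at an adjusted p of at most 0.01 and a fold of at least 3, of which 2343 and 900 also separated. The median over all genes was 0.29, and it was 0.16 when samples were scaled by median ratios, which left 2159 higher and 1093 lower. With WT H1 cells alone as reference, 1356 genes were higher and 675 lower. The gap between the classes, the lowest sample of the upper class minus the highest sample of the lower one, was at least 1 on the log2(TPM + 1) scale for 1433 higher genes (7.50%) and 594 lower genes (3.11%). These are called widely separated. A gap of at least 4 was reached by 79 higher and 9 lower genes, and one of at least 5 by 32 higher and 0 lower genes. At the threshold, ITIH3 was just inside and ADGRF2 just outside among the higher genes, and GPI and BRINP1 likewise among the lower ones, with gaps of 1.00 in size. Of the widely separated higher genes, 592 reached the TPM minimum through PRC2-null samples alone, a route that favours the higher direction. The gap is a description with no test.

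**Figure D1:**
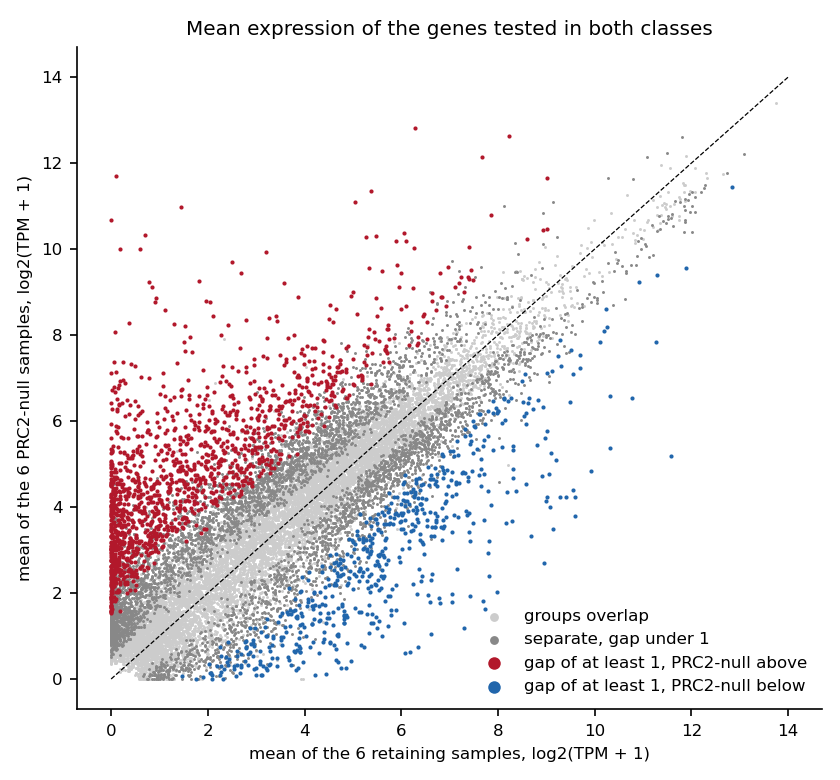
Mean log2(TPM + 1) of the 6 PRC2-null samples (vertical) against that of the 6 retaining samples (horizontal), 1 point per gene tested; colour marks the 1433 genes higher and the 594 lower with a gap of at least 1. The higher genes reach far from the diagonal at the low end of the horizontal axis, where the retaining samples are near 0.

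Among protein-coding genes 26.2% of 15603 separated upward, against 15.6% of 3119 long non-coding RNA genes, and for wide gaps the shares were 8.61% and 2.69%. Downward, the wide shares were 3.23% and 2.73%. Among symbol families with at least 10 genes tested, the 10 with the highest shares above the retaining samples were HOX (36 of 36), WNT (14 of 15), TBX (8 of 10), KRT (10 of 13), ANXA (10 of 13), BMP (8 of 11), NBPF (8 of 11), CLEC (13 of 18), TSPAN (14 of 20) and COL (30 of 43). Most of the HOX, WNT, TBX, CLEC and KRT genes had been tested through PRC2-null samples alone (36, 12, 9, 12 and 7), so their shares describe which genes were expressed and are no test. Downward, MCM (8 of 10), NUP (15 of 20), EXOSC (6 of 10), MRPS (17 of 30) and MRPL (22 of 48) had the highest shares, families of DNA replication, the nuclear pore, RNA decay and the mitochondrial ribosome.

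The widest gap of all belonged to COL3A1, the chain of fibrillar type III collagen. Its level was 2070.1 and 1873 TPM in the EED-/- samples, 11279 and 11056 in the SUZ12-/- samples and 2774 and 961 in the EZH2-/-/EZH1-/- samples, against 0 to 0.22 (median 0.05) TPM in the retaining samples, with a log2 difference of 11.59 ± 0.54 (adjusted p = 1.09e-09). TTR, which carries thyroid hormone and retinol-binding protein in plasma, was listed at 0 in all 6 retaining samples and was at 535 and 1694 TPM in the EED-/- samples, 2997 and 3079.8 in the SUZ12-/- samples and 1369 and 1746 in the EZH2-/-/EZH1-/- samples. APOA1, the main protein of high-density lipoprotein, was at 561 to 3267 TPM (median 978) in the PRC2-null and 0.25 to 1.1 (median 0.605) in the retaining samples, with a log2 difference of 9.62 ± 0.41 (adjusted p = 3.94e-10). The SUZ12-/- samples were the highest for COL3A1, TTR and APOA1, and the classes did not overlap. These genes were chosen by their gap in the same samples, so their adjusted p values are no separate support. COL3A1 and TTR were also tested through PRC2-null samples alone.

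Next in order of gap came LUM, a proteoglycan of collagen fibrils, at 318 to 4637 TPM (median 693) against 0 to 0.69 (median 0). IGF2, a fetal growth factor, was at 368 to 3285 TPM (median 740.2) against 0.18 to 1.08 (median 0.35). IGF2 lies beside H19 and overlaps other transcripts, and no use of strand in counting is stated, so its value may hold reads of a neighbour. IGFBP7 was at 413 to 1014 TPM (median 579.9) against 0.17 to 1.45 (median 0.765). IGFBP5 was at 302 to 1184 TPM (median 583) against 0.19 to 1.74 (median 0.805). Both proteins bind insulin-like growth factors. The remaining 5 of the 12 widest were APOA2, ACTA2, POSTN, PITX1 and FILIP1L. ACTA2, the actin of smooth muscle and myofibroblasts, was at 326 to 1218 TPM (median 636) against 1.8 to 4.25 (median 2.17), with a log2 difference of 7.44 ± 0.32 (adjusted p = 4.73e-10). PITX1, a transcription factor of the hindlimb and pituitary, was at 75.02 to 264 TPM (median 163) against 0 to 0.26 (median 0), with a log2 difference of 7.04 ± 0.31 (adjusted p = 5.12e-10). Thus secreted and matrix proteins made up most of these 12 genes, with ACTA2, PITX1 and FILIP1L as the others. Their choice by gap in the same samples means that the adjusted p values are no separate support. PITX1 was also tested through PRC2-null samples alone.

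On the lower side the widest gap was that of FOXD3-AS1, a non-coding RNA beside the stem cell factor FOXD3, at 1.28 to 5.22 TPM (median 3.44) in the PRC2-null and 190.5 to 313 (median 265) in the retaining samples, with a log2 difference of -5.96 ± 0.29 (adjusted p = 1.09e-09). USP44, a deubiquitinase, was at 0.53 to 1.9 TPM (median 0.975) against 60.4 to 117 (median 104). ZSCAN10, a zinc finger factor of the pluripotency network, was at 0.07 to 6.71 TPM (median 3.21) against 160.1 to 257 (median 210.0). VRTN, POLR3G, DNMT3B, TDGF1 and POU5F1 were also among the widest, all of them in the list of pluripotency genes, as are USP44 and ZSCAN10. Outside that list, LCK, a tyrosine kinase best known in T cells, was at 0.2 to 1.94 TPM (median 0.555) against 54.2 to 108 (median 84.4). SCGB3A2, a secretoglobin, was at 2.53 to 15.8 TPM (median 11.9) against 265 to 608 (median 404). IDO1, which degrades tryptophan, was at 0 to 2.28 TPM (median 0.48) against 45.3 to 96.9 (median 66.1). All of these passed the test, with log2 differences from -6.38 (POU5F1) to -5.09 (TDGF1). Since the genes were chosen by their gap in the same samples, passing is no separate support. CAMKV, a kinase-like protein of neurons, closed the 12 with -4.48, uncharacterised loci being left aside.

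**Figure D2:**
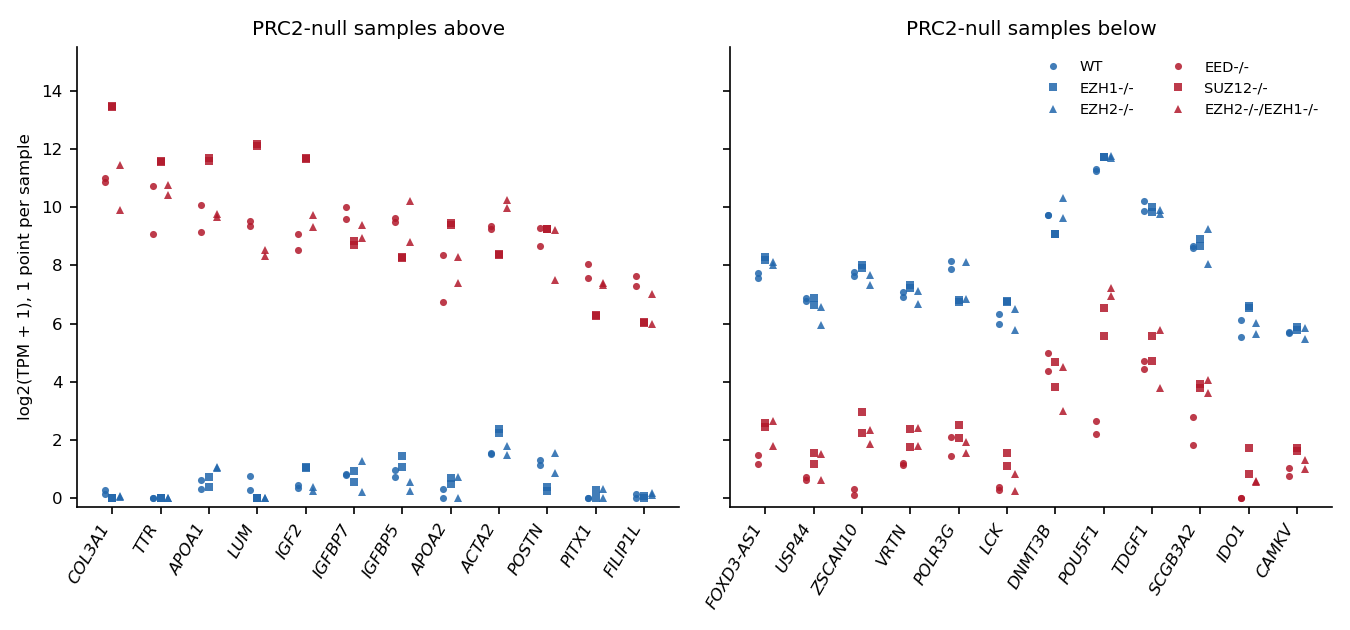
TPM of each of the 12 samples on a log2(TPM + 1) axis for the 12 genes with the widest gap in each direction, with colour for the class and marker shape for the line. Every PRC2-null point lies above every retaining point in the higher genes and below in the lower genes, and the SUZ12-/- points reach 11279 TPM for COL3A1.

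HOX genes, which give body segments their identity along the head-to-tail axis, were the most complete group. Of the 39 listed, 36 were tested, all of them through PRC2-null samples alone, and all 36 lay above every retaining sample, 35 with a gap of at least 1. In limma 34 passed, with a median log2 difference of 3.45, a value that depends on the pseudocount because 21 of the 36 were listed at 0 in every retaining sample. HOXA2, HOXB1 and HOXC5 did not reach the TPM minimum. In 35 of 36 genes every PRC2-null sample had at least 1 TPM. HOXA6, the exception, ranged over 0.19 to 3.2 TPM (median 1.57).

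By median over the PRC2-null samples, HOXA10, HOXD10 and HOXD11 were the highest, followed by HOXB6 and HOXB9. HOXA10 was at 59.6 and 43.2 TPM in the EED-/- samples, 26.6 and 29 in the SUZ12-/- samples and 41.8 and 42.6 in the EZH2-/-/EZH1-/- samples, against at most 0.07 TPM in any retaining sample, with a log2 difference of 5.31 ± 0.24 (adjusted p = 6.8e-10). HOXD11 was at 21.8 to 76.1 TPM (median 39.1) against 0 to 0.1 (median 0), with a log2 difference of 5.26 ± 0.31 (adjusted p = 6.05e-09). HOXA9, at 15.8 to 32.7 TPM (median 22.7), HOXA11, at 16.0 to 30.9 TPM (median 24.6), and HOXD10, at 14.9 to 42.3 TPM (median 39.2), were listed at 0 in all 6 retaining samples, with adjusted p = 2.43e-09, 2.14e-09 and 8e-09. Like HOXA10 and HOXD11, they entered the test through PRC2-null samples alone, which favours the higher direction. The adjusted p values of these HOX genes are therefore no separate support. Other genes were at a few TPM. HOXB4 was at 1.57 to 4.61 TPM (median 2.04). HOXD3 was at 1.25 to 3.6 TPM (median 1.72), and HOXD3 was short of the fold threshold. In the B cluster the levels were highest for HOXB6 (13.4 to 43.0 TPM, median 33.5) and HOXB9 (12.6 to 62.1 TPM, median 33.0), and in the C cluster for HOXC10 (11.2 to 27.5 TPM, median 18.6) and HOXC6 (12.3 to 20.2 TPM, median 16.95). The sample ranges of HOXB6 and HOXB9, and of HOXC10 and HOXC6, overlap, so their order is not fixed.

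Neighbouring tested genes that all separated upward formed 45 runs of at least 5 genes, and downward runs numbered 4. Upward separation was the commoner over all genes tested (24.2% against 13.3%), which by itself gives more upward runs. The number of runs expected from scattered genes was not worked out, so these counts are a description. The longest run lay on chromosome 7 (26667068 to 27250493, GENCODE on GRCh38) and held 20 genes from SKAP2 to EVX1, 17 of them with wide gaps and 10 of them HOXA genes. It also held HOTAIRM1 (11.4 to 29.6 TPM, median 13.5, against 0 to 0.25, median 0), HOXA11-AS (9.52 to 22.6 TPM, median 16.6) and HOTTIP (0.73 to 2.61 TPM, median 1.51), the latter pair at 0 in all retaining samples. The HOXD run, chr2:176077472-176190907, held 13 genes from EVX2 to HOXD1, 12 with wide gaps. A run of 11 genes on chromosome 12 (53708517 to 54030823) took in 6 HOXC genes and HOTAIR, a non-coding RNA of the HOXC cluster, at 10.4 to 31.4 TPM (median 11.8) against 0 in all retaining samples. Antisense and overlapping transcripts in these clusters may share reads, since no use of strand in counting is stated, so their values are uncertain. Outside the HOX clusters, 12 genes from NPY2R to TMEM144 on chromosome 4 (155208636 to 158255416) all separated upward. This run held FAM198B (40.3 to 269.8 TPM, median 131, against 0 to 0.25, median 0), the growth factor PDGFC (38.1 to 105 TPM, median 41.4, against 0.26 to 3.01, median 0.89), both subunits of soluble guanylate cyclase (GUCY1A3 and GUCY1B3) and TDO2 (5.32 to 47.8 TPM, median 9.01), which was at 0 in all retaining samples. A run of 9 on chromosome 17 (40818117 to 41624842) held 6 keratin genes and their neighbours.

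Promoter sequences are shown for a pair of HOX genes and a pair of liver-type genes because widely separated higher genes began from upstream sequences of very unlike CpG content. Each is the 250 bases before the RefSeq start (GRCh38.p14), read 5′ to 3′ on the gene's strand, with every CpG in capitals. HOXA9 (chr7:27165538-27165787, minus strand) has 20 CpG and HOXD10 (chr2:176116528-176116777, plus strand) has 23. AFP (chr4:73435971-73436220, plus strand) has 1 and APOA2 (chr1:161223629-161223878, minus strand) has 0.
HOXA9: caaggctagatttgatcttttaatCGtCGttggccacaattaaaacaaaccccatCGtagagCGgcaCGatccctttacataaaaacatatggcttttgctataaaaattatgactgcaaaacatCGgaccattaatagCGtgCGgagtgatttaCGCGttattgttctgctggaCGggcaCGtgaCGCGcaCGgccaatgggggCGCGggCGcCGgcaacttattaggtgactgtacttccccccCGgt
HOXD10: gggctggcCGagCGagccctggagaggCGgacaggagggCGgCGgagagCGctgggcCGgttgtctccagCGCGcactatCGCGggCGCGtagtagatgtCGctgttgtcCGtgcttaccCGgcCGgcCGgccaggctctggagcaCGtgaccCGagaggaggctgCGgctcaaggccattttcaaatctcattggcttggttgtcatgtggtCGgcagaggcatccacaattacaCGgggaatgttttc
AFP: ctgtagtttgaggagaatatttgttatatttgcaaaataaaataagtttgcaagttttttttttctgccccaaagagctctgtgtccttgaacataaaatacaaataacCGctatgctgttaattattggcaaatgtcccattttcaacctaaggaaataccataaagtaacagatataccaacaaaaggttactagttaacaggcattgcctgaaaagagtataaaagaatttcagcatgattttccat
APOA2: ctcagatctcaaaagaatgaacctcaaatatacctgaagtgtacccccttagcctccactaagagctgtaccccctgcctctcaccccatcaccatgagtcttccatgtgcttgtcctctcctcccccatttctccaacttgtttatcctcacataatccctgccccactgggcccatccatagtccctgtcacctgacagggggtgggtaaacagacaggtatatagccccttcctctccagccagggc
Over the 35116 promoters in the table, the median was 11 CpG in these 250 bases, 42.9% held 15 or more and 38.1% held at most 5, so both kinds are common. The table covered 71.1% of tested genes and 72.2% of the widely separated higher ones, which is too few for a comparison of base composition between sets, and none was made.

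Transcription factors of endoderm and mesoderm were next. Counts in this and the following lists stand beside 24.2% above, 13.3% below and 62.5% overlapping over all genes tested. Of 20 endoderm and liver factors, 15 lay above, 1 (FOXA3) below and 4 overlapped. In limma 12 were higher, with a median log2 difference of 2.48 beside 0.29 over all genes, and 14 of the 20 had been tested through PRC2-null samples alone. GATA4, which specifies heart and primitive endoderm, was at 68.7 to 124 TPM (median 86.7) against 0.13 to 0.75 (median 0.435), with a log2 difference of 5.98 ± 0.25 (adjusted p = 3.66e-10). GATA6 was at 20.5 to 42.8 TPM (median 27.7) against 0 to 0.07 (median 0). The endoderm factor SOX17 was at 15.4 to 64.1 TPM (median 35.3) against 0 to 0.06 (median 0). HNF4A, a master regulator of hepatocyte genes, was at 11.7 to 33.8 TPM (median 25.05) against 0 to 0.07 (median 0). ONECUT1, a liver and pancreas factor, overlapped with the opposite sign, at 0 to 1.58 TPM (median 0.45) against 1.13 to 4.67 (median 2.18). NR1H4, the bile acid receptor, was at 7.34 and 6.94 TPM in SUZ12-/- H1 cells and listed at 0 in the other 10 samples.

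Factors of the lateral plate and heart lay above in 15 of 17 genes, 14 with wide gaps, and 16 passed limma (median 4.14, with 15 tested through PRC2-null samples alone and 6 at 0 in every retaining sample). TBX3 was at 33.1 to 80.0 TPM (median 61.6) against 0 to 0.24 (median 0.09). MEIS2, a HOX cofactor, was at 20.2 to 37.5 TPM (median 30.6) against 0 to 0.43 (median 0.27). The cardiac factor NKX2-5 was at 13.2 to 40.2 TPM (median 26.9) against 0 to 0.51 (median 0.15). FOXF2, a factor of gut mesenchyme, was at 15.9 to 32.1 TPM (median 21.1) and at 0 in all retaining samples. TBX20 overlapped because the second EZH2-/-/EZH1-/- sample was at 0, and IRX4 overlapped at 1.51 to 3 TPM (median 1.99) against 0.62 to 1.52 (median 0.81).

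Primitive streak genes separated upward in 7 of 11 tested genes and 6 passed, with 5 tested through PRC2-null samples alone. EOMES was at 2.41 to 18.5 TPM (median 5.83) against 0.05 to 0.15 (median 0.135), with a log2 difference of 2.65 ± 0.40 (adjusted p = 6.01e-05). CER1, an antagonist of NODAL and BMP, was at 15.8 to 463 TPM (median 30.4) against 0.35 to 3.86 (median 1.47), with a log2 difference of 4.47 ± 0.77 (adjusted p = 0.000218). When limma was fitted to line means, 3 lines against 3, the adjusted p of CER1 was 0.0102. TBX6, which directs paraxial mesoderm, had the opposite sign and overlapped, at 0.15 to 2.17 TPM (median 0.39) against 0.56 to 4.69 (median 2.42). Paraxial mesoderm and skeletal muscle factors had 6 of 10 genes tested, of which 3 lay above, 1 below and none with a wide gap, and 4 had been tested through PRC2-null samples alone. PAX3 was at 0.62 to 3.78 TPM (median 2.73) against 0 to 0.2 (median 0.085), and TCF15, a somite factor, was lower, at 0.71 to 2.52 TPM (median 1.52) against 5.03 to 23.7 (median 8.23), with a log2 difference of -2.08 ± 0.40 (adjusted p = 0.000468). MYOD1 and MYOG stayed under 1 TPM in all 12 samples. Intermediate mesoderm and kidney genes lay above in 6 of 10 (6 tested through PRC2-null samples alone), among them OSR1 (3.42 to 25.3 TPM, median 7.8, against 0 to 0.23, median 0.07), while SALL1 overlapped at 6.41 to 15.9 TPM (median 10.3) against 15.4 to 43.2 (median 33.7).

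Secreted proteins of liver and yolk sac had a median difference of 5.32, with 14 of 18 above and 13 past limma (12 when samples were scaled by median ratios), and 13 of the 18 had been tested through PRC2-null samples alone. The median difference from WT H1 cells was 8.75 in SUZ12-/-, 4.42 in EED-/- and 3.03 in EZH2-/-/EZH1-/- H1 cells. AFP, the fetal serum protein, was at 163 and 768 TPM in the EED-/- samples, 13208 and 13695 in the SUZ12-/- samples and 201 and 183 in the EZH2-/-/EZH1-/- samples, against 4.08 to 14.3 (median 8.81) TPM in the retaining samples, with a log2 difference of 6.73 ± 1.14 (adjusted p = 0.00027). With WT H1 cells alone as reference its adjusted p was 0.0341. ALB, its adult counterpart, was at 2.06 and 4.38 TPM in the EED-/- samples, 184 and 193 in the SUZ12-/- samples and 1.91 and 1.37 in the EZH2-/-/EZH1-/- samples, against 0 to 0.36 (median 0.04) TPM, and did not pass (adjusted p = 0.0126). The levels of both genes in SUZ12-/- H1 cells were far above those in the other PRC2-null lines. VTN was at 56.8 to 379 TPM (median 78.2) against 0 to 0.32 (median 0.22), with a log2 difference of 6.72 ± 0.45 (adjusted p = 1.97e-08). APOA2 was at 107 to 701 TPM (median 319) against 0 to 0.64 (median 0.325), with a log2 difference of 7.91 ± 0.47 (adjusted p = 6.05e-09). AHSG, a fetal plasma glycoprotein, overlapped, since it was at 1.08 and 12.4 TPM in the EED-/- samples, 673 and 699.6 in the SUZ12-/- samples and 0 and 0.3 in the EZH2-/-/EZH1-/- samples, and TF, which carries iron, overlapped at 0.27 to 18.1 TPM (median 0.89) against 0 to 0.49 (median 0).

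Endothelial genes lay above in 13 of 16 cases and 12 passed, with a median of 2.89 and 8 of the 16 tested through PRC2-null samples alone. The junction proteins PECAM1 (13.2 to 153 TPM, median 27.7, against 0 to 0.37, median 0.13) and CDH5 (11.9 to 146 TPM, median 26.4, against 0.13 to 0.95, median 0.3) separated, as did TIE1, ESAM and the factor SOX18. The receptors KDR, at 14.7 to 135 TPM (median 67.7) against 31.6 to 133 (median 67.4), and TEK, at 5.75 to 34.6 TPM (median 26.0) against 6.83 to 22.1 (median 12.3), overlapped, and both were expressed in the retaining samples. Of 17 genes of blood formation, 8 were tested, 4 of them through PRC2-null samples alone, and 6 lay above, among them CD34 (33.0 to 156 TPM, median 65.9, against 0.18 to 0.53, median 0.49), RUNX1 (12.1 to 52.9 TPM, median 25.9, against 0.1 to 1.12, median 0.33) and GATA2 (8.99 to 26.0 TPM, median 21.2, against 0 to 0.59, median 0.295). ITGA2B, a platelet integrin, was lower at 0.28 to 3.06 TPM (median 2.14) against 5.28 to 18.5 (median 8.2). Markers of mature blood cells did not accompany them. PTPRC was at most 1.46 TPM and GATA1 at most 0.15 in the PRC2-null samples, and the summed level of the 4 blood markers was 1.34 to 2.92 TPM there and 2.05 to 4.14 TPM in the retaining samples.

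Muscle genes were mixed. Of 13 smooth muscle genes, 9 lay above and 4 overlapped, including CNN1, which encodes calponin, at 21.4 to 109.9 TPM (median 99.2) against 16.4 to 32.8 (median 27.5) (adjusted p = 0.0201). MYH11, the heavy chain of mature smooth muscle, was at 0.29 to 1.38 TPM (median 0.895) against 0.67 to 1.32 (median 0.795). CALD1 was at 479 to 1370.0 TPM (median 754) against 74.6 to 184 (median 139), with a log2 difference of 2.62 ± 0.34 (adjusted p = 1.5e-05). LMOD1 was at 9.11 to 16.1 TPM (median 11.9) against 0.2 to 1.96 (median 1.17). DES overlapped at 2.21 to 144 TPM (median 3.1) against 1.59 to 5.67 (median 3.38). Of 14 cardiac and striated muscle genes, 11 were tested, 5 lay above and 6 passed, with 4 tested through PRC2-null samples alone. ACTC1, the cardiac actin, was at 148 to 896 TPM (median 344) against 6.84 to 45.4 (median 26.1), with a log2 difference of 3.87 ± 0.63 (adjusted p = 0.000158). NPPB, a natriuretic peptide, was at 247 and 438 TPM in the EED-/- samples, 16.8 and 14.4 in the SUZ12-/- samples and 634 and 742 in the EZH2-/-/EZH1-/- samples, against 0 to 2.32 (median 0.27) TPM. MYL7, an atrial light chain, overlapped because it was at 210.1 and 375 TPM in the EED-/- samples, 14.5 and 9.46 in the SUZ12-/- samples and 371 and 579 in the EZH2-/-/EZH1-/- samples, whereas the second EZH2-/- sample had 13.9 TPM. The cardiac myosin heavy chains MYH6 and MYH7 stayed under 1 TPM in all 12 samples.

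Genes of the extracellular matrix came next. Of 24 collagens, 21 lay above and 21 passed (median 3.89), and only 3 of the 24 had been tested through PRC2-null samples alone. The chains of type I collagen were abundant, COL1A1 at 1133 to 4901 TPM (median 2105) against 22.6 to 43.9 (median 33.5), with a log2 difference of 6.04 ± 0.35 (adjusted p = 5.38e-09). COL1A2 was at 1621 to 4007 TPM (median 2766) against 27.6 to 61.1 (median 42.0), with a log2 difference of 5.97 ± 0.25 (adjusted p = 3.94e-10). COL5A1 was at 286 to 1589.9 TPM (median 690.4) against 4.05 to 6.9 (median 5.53). COL26A1 overlapped in the opposite direction, at 33.5 to 65.6 TPM (median 40.4) against 64.2 to 89.6 (median 80.7), and separated downward under median-ratio scaling, where 20 collagens lay above and 1 below. COL14A1 overlapped at 8.52 to 128 TPM (median 19.7) against 11.1 to 16.9 (median 15.2). All 7 tested small leucine-rich proteoglycans of 11 listed lay above, led by LUM and BGN (315 to 687 TPM, median 398, against 1.78 to 5.77, median 3.1, log2 difference 6.73 ± 0.34, adjusted p = 2.11e-09), although 6 of the 7 had been tested through PRC2-null samples alone. DCN was at 30.9 and 26.3 TPM in the EED-/- samples, 2165 and 2287 in the SUZ12-/- samples and 10.7 and 5.26 in the EZH2-/-/EZH1-/- samples.

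Mesenchymal genes lay above in 13 of 16, and 13 were higher and 1 lower in limma (median 3.78, with 7 tested through PRC2-null samples alone). The lower gene, THY1, which encodes the surface protein CD90, was at 50.1 to 212 TPM (median 171) against 347 to 688 (median 551), with a log2 difference of -2.01 ± 0.43 (adjusted p = 0.00119). FN1, fibronectin, was at 4324 to 11452 TPM (median 8168) against 50.5 to 119.7 (median 76.7), with a log2 difference of 6.55 ± 0.35 (adjusted p = 2.43e-09). VIM, the mesenchymal intermediate filament, was at 3354 to 8087 TPM (median 4087) against 103 to 352 (median 228), with a log2 difference of 4.47 ± 0.33 (adjusted p = 5.46e-08). ZEB2 was at 16.4 to 65.0 TPM (median 25.5) against 0 to 0.27 (median 0.085). SNAI2 was at 15.47 to 89.6 TPM (median 32.8) against 0.15 to 0.85 (median 0.615), whereas SNAI1, the third of these repressors of epithelial genes, overlapped at 4.43 to 15.9 TPM (median 8.98) against 7.03 to 14.1 (median 8.35). The 18 epithelial genes had a median difference of 0.01 (-0.14 under median-ratio scaling), with 4 above, 2 below and 12 overlapping. These shares are close to those over all genes tested, of which 24.2% lay above, 13.3% below and 62.5% overlapped. EPCAM overlapped at 223 to 564 TPM (median 343) against 158 to 279 (median 207), ST14, a surface protease, lay above in every PRC2-null sample at 49.8 to 77.7 TPM (median 54.3) against 16.6 to 23.6 (median 20.4), and CLDN10 was lower at 0.6 to 5.31 TPM (median 2.78) against 33.4 to 46.5 (median 39.5). In this list 1 gene passed limma in each direction, and ST14 was short of the fold threshold.

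Signalling genes are given by role. Among ligands of the BMP family, BMP2 was at 29.0 to 81.2 TPM (median 40.2) against 0.67 to 1.79 (median 1.28), with a log2 difference of 4.32 ± 0.33 (adjusted p = 7.61e-08). GDF6 was at 17.7 to 55.2 TPM (median 33.0) against 0.04 to 0.26 (median 0.16), with a log2 difference of 4.82 ± 0.29 (adjusted p = 6.05e-09). Of the antagonists, GREM1 was at 11.8 to 215 TPM (median 74.98) against 0.17 to 0.36 (median 0.2), with a log2 difference of 5.84 ± 0.62 (adjusted p = 2.01e-06). The pseudoreceptor BAMBI was at 285 to 508 TPM (median 426) against 18.7 to 31.7 (median 20.1), with a log2 difference of 4.16 ± 0.23 (adjusted p = 3e-09). In all, 16 of 19 BMP genes lay above, 10 with wide gaps, and 17 passed (14 and 15 under median-ratio scaling), with 7 tested through PRC2-null samples alone. The 3 that overlapped were ID1, ID2 and ID3, direct targets of BMP signalling. ID1 was at 133 to 348 TPM (median 247) against 102 to 446 (median 219.5) (adjusted p = 0.707). ID2 was at 46.4 to 259 TPM (median 147) against 24.5 to 54.8 (median 42.3), with a log2 difference of 1.75 ± 0.48 (adjusted p = 0.00655). The call of ID2 was lost without the first EZH1-/- sample (adjusted p = 0.0135) and without several other single samples.

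Of 20 WNT genes, 16 lay above and 1 below, and 15 were higher and 1 lower in limma (median 3.46, with 11 tested through PRC2-null samples alone). SFRP2, a secreted WNT inhibitor, was the lower gene, at 10.4 to 55.8 TPM (median 20.3) against 256 to 563 (median 371). The ligand WNT2 was at 76.9 and 30.0 TPM in the EED-/- samples, 68.6 and 65.5 in the SUZ12-/- samples and 26.1 and 42.0 in the EZH2-/-/EZH1-/- samples, and at 0 in all retaining samples. DKK1, a secreted WNT inhibitor, was at 75.3 to 310.3 TPM (median 189) against 0 to 0.67 (median 0.31), with a log2 difference of 6.92 ± 0.37 (adjusted p = 2.43e-09). RSPO3, which amplifies WNT signals, was at 16.8 to 111 TPM (median 82.7) against 0 to 0.36 (median 0.02), with a log2 difference of 5.79 ± 0.52 (adjusted p = 3.49e-07). LEF1, the nuclear partner of beta-catenin, was at 36.2 to 70.7 TPM (median 47.2) against 0.26 to 1.11 (median 0.52), with a log2 difference of 5.02 ± 0.27 (adjusted p = 2.43e-09). SFRP1, another secreted inhibitor, overlapped at 36.2 to 102 TPM (median 92.4) against 77 to 308 (median 143). Of 17 FGF genes, 3 of them tested through PRC2-null samples alone, 4 lay above, 3 below and 10 overlapped. These shares are close to those over all genes tested (24.2%, 13.3% and 62.5%), so the counts show nothing particular to this list. FGF2 was lower at 2.88 to 7.15 TPM (median 6.32) against 18.1 to 37.9 (median 24.7), with a log2 difference of -2.04 ± 0.32 (adjusted p = 8.17e-05), as was FGF19 at 0.19 to 1.97 TPM (median 0.28) against 8.65 to 25.9 (median 10.8). ETV4, a transcriptional target of FGF signalling, was lower at 20.2 to 40.5 TPM (median 28.9) against 84.1 to 150.2 (median 119). Retinoic acid genes also went both ways, with 3 of 14 tested through PRC2-null samples alone. The synthesizing enzymes ALDH1A1 (55.1 to 131 TPM, median 114, against 0.36 to 2.83, median 1.53), ALDH1A2 (8.26 to 40.5 TPM, median 21.4, against 0 to 0.1, median 0.045) and RDH10 (29.2 to 82.2 TPM, median 38.9, against 2.73 to 4.84, median 3.74) were higher, and the binding protein CRABP1 was lower, at 2.61 to 24.2 TPM (median 16.0) against 253 to 348 (median 281), with a log2 difference of -4.54 ± 0.42 (adjusted p = 4.64e-07).

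The lower genes were led by the pluripotency network. Of 30 genes, 21 lay below and 9 overlapped, with no gene above, 19 had wide gaps, and 22 passed (median -3.45). POU5F1, which encodes OCT4, was at 5.27 and 3.62 TPM in the EED-/- samples, 91.0 and 47.0 in the SUZ12-/- samples and 123 and 149.8 in the EZH2-/-/EZH1-/- samples, against 2428 to 3456 (median 3329.5) TPM in the retaining samples, with a log2 difference of -6.38 ± 0.78 (adjusted p = 1.2e-05). The EED-/- samples were the lowest. NANOG was at 0.37 to 8.1 TPM (median 4.33) against 97.5 to 185 (median 132), with a log2 difference of -5.06 ± 0.45 (adjusted p = 2.9e-07). SOX2 was at 7.09 to 24.5 TPM (median 13.2) against 119.9 to 219 (median 169), with a log2 difference of -3.54 ± 0.37 (adjusted p = 1.82e-06). DNMT3B, the de novo DNA methyltransferase of early embryos, was at 6.92 to 30.9 TPM (median 20.7) against 538 to 1268 (median 818), with a log2 difference of -5.36 ± 0.39 (adjusted p = 4.77e-08). UTF1 passed although its groups overlapped, since the second EZH2-/-/EZH1-/- sample had 13.99 TPM and WT H1 cells 8.22 and 7.15. NODAL, LEFTY1, LEFTY2, GDF3, SALL4 and LIN28B were among the other genes that overlapped.

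DNA replication and mitosis genes fell together, 21 of 22 below all retaining samples, 18 with wide gaps, and 21 past limma (median -2.80). The replicative helicase subunits MCM5 (15.7 to 27.6 TPM, median 22.0, against 150.5 to 251, median 202, log2 difference -3.15 ± 0.22, adjusted p = 2.56e-08) and MCM3 (27.4 to 52.4 TPM, median 42.2, against 256 to 370.2, median 344, log2 difference -2.98 ± 0.22, adjusted p = 4.97e-08), the helicase cofactor GINS2 (1.55 to 5.78 TPM, median 5.34, against 36.2 to 59.6, median 47.1) and the mitotic kinase AURKB (5.28 to 21.3 TPM, median 14.04, against 128 to 178, median 137) had the widest gaps. TYMS, thymidylate synthase, overlapped at 61.7 to 101 TPM (median 77.6) against 79.7 to 140.2 (median 100). Of 37 kinesins (KIF), 14 lay below, 10 with wide gaps, and 4 above. Of 7 CDK inhibitors tested, 2 through PRC2-null samples alone (CDKN2B and CDKN2C), the 4 that separated were all higher. CDKN2A, which encodes p16 and p14ARF, was at 563 and 445 TPM in the EED-/- samples, 109 and 126 in the SUZ12-/- samples and 335 and 586 in the EZH2-/-/EZH1-/- samples, against 0.44 to 13.9 (median 1.15) TPM, with a log2 difference of 6.69 ± 0.64 (adjusted p = 7.94e-07), and its highest retaining sample was the second EZH2-/- one. CDKN2B, its neighbour on chromosome 9, was at 34.1 to 562 TPM (median 250.5) against 0 to 0.66 (median 0.115), with a log2 difference of 7.13 ± 0.60 (adjusted p = 1.97e-07). CDKN1A, which encodes p21, was at 175 to 1246 TPM (median 618) against 6.15 to 23.3 (median 16.5), with a log2 difference of 5.01 ± 0.57 (adjusted p = 4.51e-06). CDKN1C was at 59.4 to 577 TPM (median 123) against 5.42 to 19.8 (median 11.5), with a log2 difference of 3.75 ± 0.56 (adjusted p = 6.63e-05). CDKN1B, CDKN2C and CDKN2D overlapped.

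Ribosomal protein genes differed by less. Of 27, 13 lay below and 14 overlapped. With the fold threshold 0 passed limma, 10 had an adjusted p at or below the threshold without regard to fold, and 19 were lower at an unadjusted p under 0.05 (median -0.70, or -0.86 under median-ratio scaling). RPS2 was at 2276 to 4309 TPM (median 3981) against 6350.3 to 7401 (median 6790.1), with a log2 difference of -0.97 ± 0.18 (adjusted p = 0.00047). RPL11 was at 1141 to 2774 TPM (median 2293) against 3613 to 4701 (median 4148), with a log2 difference of -1.01 ± 0.23 (adjusted p = 0.0022), differences below 3-fold. Of 10 telomerase and LIN28 genes, 6 lay below and 5 of them passed, 3 overlapped and 1 lay above. The gene above, HMGA2, was at 133 to 252 TPM (median 172) against 41.3 to 88.6 (median 64.0) and did not pass. TERT, the catalytic subunit of telomerase, was at 0.14 to 1 TPM (median 0.52) against 11.8 to 16.0 (median 14.8), with a log2 difference of -3.29 ± 0.26 (adjusted p = 8.49e-08). TERF1, which binds telomeres, was at 28.1 to 57.5 TPM (median 52.5) against 313 to 763 (median 493). LIN28A, which blocks let-7 microRNAs, was at 40.4 to 225 TPM (median 73.5) against 641 to 779 (median 709.7). HMGA1, an architectural chromatin protein, was at 126 to 374 TPM (median 238) against 2174 to 2872 (median 2404), with a log2 difference of -3.44 ± 0.25 (adjusted p = 3.72e-08). IGF2BP3 overlapped at 4.13 to 64.0 TPM (median 41.3) against 58.5 to 124 (median 94.1).

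Among Polycomb genes themselves, 9 of 13 PRC2 subunits overlapped, 3 lay below and 1 above. Over all genes tested, 62.5% overlapped, 13.3% lay below and 24.2% above, so these counts alone show nothing particular to the list. JARID2, an accessory subunit that helps recruit PRC2, was at 14.2 to 29.0 TPM (median 21.0) against 97.3 to 154 (median 125), with a log2 difference of -2.48 ± 0.25 (adjusted p = 1.28e-06), and MTF2, also accessory, lay below at 21.5 to 42.4 TPM (median 33.3) against 64.6 to 79.0 (median 67.5) but short of the fold threshold. C17orf96, now named EPOP, was higher at 5.99 to 15.2 TPM (median 9.01) against 1.15 to 3.05 (median 1.53), with a log2 difference of 1.88 ± 0.28 (adjusted p = 5.85e-05). Of 20 PRC1 subunits 7 lay above, 3 below and 10 overlapped, counts that by themselves are also no result about this list. Its polyhomeotic members moved apart, PHC1 at 14.1 to 53.4 TPM (median 37.8) against 271 to 981 (median 647), with a log2 difference of -4.11 ± 0.41 (adjusted p = 1.16e-06). PHC2 was at 57.2 to 98.0 TPM (median 82.8) against 5.07 to 11.8 (median 6.43), with a log2 difference of 3.26 ± 0.27 (adjusted p = 1.34e-07). YAF2 was higher, at 12.7 to 21.2 TPM (median 14.9) against 0.29 to 1.49 (median 0.98). BMI1 passed but overlapped, because EZH2-/- H1 cells had 34.1 and 10.6 TPM against at most 3.06 in WT and EZH1-/- H1 cells. Among 8 tested enzymes of DNA methylation and demethylation, 1 had been tested through PRC2-null samples alone. Of the enzymes of DNA methylation and demethylation, DNMT3B, UHRF1 (4.67 to 15.1 TPM, median 9.12, against 35.4 to 52.9, median 40.5) and TET1 (0.76 to 5.19 TPM, median 2.48, against 9.6 to 18.3, median 13.2) were lower and TET2 was higher (4.2 to 11.8 TPM, median 7.25, against 0.34 to 1.13, median 0.565, log2 difference 2.36 ± 0.29, adjusted p = 8.57e-06), while DNMT3A overlapped at 42.7 to 66.7 TPM (median 51.6) against 52.0 to 79.3 (median 68.0).

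Imprinted genes, expressed from one parental copy, were mixed, 6 above, 1 below and 7 overlapping of 14 tested. Of the 14, 2 had been tested through PRC2-null samples alone. Over all genes tested, 24.2% lay above, 13.3% below and 62.5% overlapped. DLK1, a NOTCH ligand relative, was at 179.9 and 99.0 TPM in the EED-/- samples, 3771 and 3834 in the SUZ12-/- samples and 241 and 107 in the EZH2-/-/EZH1-/- samples, against 0.3 to 1.54 (median 1.05) TPM, with a log2 difference of 7.85 ± 0.89 (adjusted p = 6.02e-06). PHLDA2, a placental growth restrictor, was at 38 to 113 TPM (median 77.3) against 4.8 to 9.73 (median 7.22), with a log2 difference of 3.06 ± 0.29 (adjusted p = 7.36e-07). H19 had one of the largest mean differences of any overlapping gene, at 488 and 0.27 TPM in the EED-/- samples, 7135 and 7399.9 in the SUZ12-/- samples and 112 and 53.0 in the EZH2-/-/EZH1-/- samples, so that 1 EED-/- sample lay below the retaining samples (2.14 to 7, median 3.95 TPM) and the other far above. MHC class I genes lay above in 5 of 12, among them HLA-B (405 to 910.2 TPM, median 754, against 84.0 to 147, median 111, log2 difference 2.65 ± 0.24, adjusted p = 4.64e-07), HLA-E (88.7 to 149 TPM, median 113, against 24.2 to 38.9, median 32.6) and B2M (379 to 1636 TPM, median 589, against 82.7 to 276, median 141), whereas the peptide transporter subunit TAP2 lay below at 2.52 to 8.61 TPM (median 4.54) against 12.2 to 19.2 (median 15.8), just short of the fold threshold, and the immunoproteasome subunit PSMB8 overlapped at 3.55 to 27.1 TPM (median 7.86) against 16.7 to 39.3 (median 20.6). In all, 5 of the 12 MHC class I genes lay above, 1 below and 6 overlapped, beside the shares over all genes given above. HLA genes are near-identical in parts, so the split of reads between them is uncertain.

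Ectodermal and extraembryonic lists followed. Of 12 neural plate and neurogenic factors tested from 18, 5 lay above, 3 below and 4 overlapped, with 7 tested through PRC2-null samples alone. Over all genes tested, the shares above, below and overlapping were 24.2%, 13.3% and 62.5%. PAX6, a neural and eye factor, was at 129 and 50.03 TPM in the EED-/- samples, 7.94 and 5.66 in the SUZ12-/- samples and 21.9 and 24.5 in the EZH2-/-/EZH1-/- samples, against 0.24 to 0.7 (median 0.47) TPM, with a log2 difference of 4.08 ± 0.59 (adjusted p = 3.82e-05). ZIC1 was at 17.9 to 31.6 TPM (median 26.1) against 0.21 to 2.33 (median 1.03). HESX1 was lower at 0.29 to 4.72 TPM (median 1.87) against 12.8 to 31.3 (median 16.3) and POU3F1 lower at 0.29 to 2.24 TPM (median 1.25) against 7.43 to 21.1 (median 10.8), while SOX1 stayed under 1 TPM in the 12 samples compared. Of 12 neural crest genes, 7 lay above and 2 below, with 5 tested through PRC2-null samples alone. MSX1 was at 25.9 to 51.3 TPM (median 43.9) against 0.17 to 0.78 (median 0.435), with a log2 difference of 4.83 ± 0.27 (adjusted p = 3e-09). DLX5 was at 12.9 to 31.0 TPM (median 20.2) against 0 to 0.18 (median 0). FOXD3 was at 0.13 to 0.77 TPM (median 0.605) against 16.8 to 23.4 (median 17.9), with a log2 difference of -3.69 ± 0.23 (adjusted p = 7.99e-09). SOX10, the defining factor, was at 0.19 to 0.92 TPM (median 0.675) against 1.57 to 3.19 (median 2.1).

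Trophoblast and amnion genes lay above in 13 of 17 tested. GATA3 was at 18.3 to 36.4 TPM (median 20.6) against 0.05 to 0.22 (median 0.17), with a log2 difference of 4.34 ± 0.25 (adjusted p = 5.62e-09). TFAP2A was at 16.1 to 31.2 TPM (median 22.7) against 0 to 0.29 (median 0.055), with a log2 difference of 4.44 ± 0.26 (adjusted p = 5.38e-09), but 14 of the 17 had been tested through PRC2-null samples alone and several, GATA2, TBX3, ISL1 and HAND1 among them, are also mesoderm genes. The trophoblast markers CGA, a chorionic gonadotropin subunit, at 0.65 to 5.54 TPM (median 2.5), and ELF5, at 0 to 2.94 TPM (median 0.63), stayed at a few TPM or less. GABRP overlapped in the opposite direction, at 12 and 9.98 TPM in the EED-/- samples, 234 and 238 in the SUZ12-/- samples and 37.7 and 2.23 in the EZH2-/-/EZH1-/- samples, against 167 to 445 (median 303) TPM. Of 10 epidermal genes 5 were tested, 3 of them through PRC2-null samples alone, and 4 lay above, among them KRT17 (28.9 to 126 TPM, median 101, against 0.33 to 2.35, median 0.775, log2 difference 5.22 ± 0.40, adjusted p = 7.82e-08) and KRT10 (22.1 to 59.4 TPM, median 30.5, against 5.9 to 10.5, median 6.84), while KRT14 stayed under 1 TPM in the 12 samples compared and KRT5 overlapped at 0 to 6.59 TPM (median 3.1) against 0 in all retaining samples. Germ cell genes went both ways, 2 above, 4 below and 3 overlapping of 9. Of these 9, 3 had been tested through PRC2-null samples alone, PRDM1 among them. PRDM1, a factor of germ cell specification and of many other cells, was at 7.05 to 15.7 TPM (median 12.0) against 0.09 to 0.29 (median 0.175), with a log2 difference of 3.34 ± 0.25 (adjusted p = 4.87e-08), and DPPA5, lower, was listed at 0 in all 6 PRC2-null samples against 1.36 to 7.59 (median 3.5) TPM.

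A TPM of 0 in all 6 retaining samples was listed for 408 tested genes, of which 234 separated and 93 had at least 1 TPM in all 6 PRC2-null samples. The 6 with the highest lowest PRC2-null value were TTR, MMP1, WNT2, C8orf4, TFF1 and HOXA11. MMP1, a collagenase, was at 1122 and 395 TPM in the EED-/- samples, 84.4 and 52.8 in the SUZ12-/- samples and 87.2 and 39.2 in the EZH2-/-/EZH1-/- samples, with EED-/- H1 cells highest. C8orf4, also called TCIM, was at 24.9 to 152 TPM (median 63.4). TFF1, a mucosal trefoil peptide, was at 17.6 to 65.7 TPM (median 46.0). In the other direction 44 genes were at 0 in all PRC2-null samples, and 18 of them separated.

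The PRC2-null lines differed among themselves. Among the widely separated higher genes, the highest line mean was that of EED-/- in 820 (57.2%), of SUZ12-/- in 406 (28.3%) and of EZH2-/-/EZH1-/- in 207 (14.4%), and among the lower genes EED-/- had the lowest mean in 365 (61.4%). The same shares over all genes tested were not worked out, so these are a description. The median ratios used for scaling were 1.24 and 1.13 in EED-/-, 1.02 and 0.998 in SUZ12-/- and 1.13 and 0.887 in EZH2-/-/EZH1-/- samples. The range of the 3 line means had a median of 1.04 in the higher and 0.65 in the lower genes, beside 0.68 over all genes. It was below 1 in 687 higher genes (47.9%) and 444 lower genes (74.7%), and above 3 in 62 higher genes. The 5 with the largest range were DCN, APOA4, MGP, SERPINA1 and FGG, all highest in SUZ12-/- H1 cells. APOA4, an intestinal and fetal apolipoprotein, was at 23.0 and 51.3 TPM in the EED-/- samples, 1878 and 1943 in the SUZ12-/- samples and 10.7 and 6.18 in the EZH2-/-/EZH1-/- samples. MGP, an inhibitor of calcification, was at 6.79 and 4.21 TPM in the EED-/- samples, 636 and 724 in the SUZ12-/- samples and 2.82 and 3.2 in the EZH2-/-/EZH1-/- samples. SERPINA1, alpha-1 antitrypsin, was at 33.0 and 107 TPM in the EED-/- samples, 1592 and 1623 in the SUZ12-/- samples and 7.01 and 20.2 in the EZH2-/-/EZH1-/- samples. FGG, the fibrinogen gamma chain, was at 2.69 and 33.8 TPM in the EED-/- samples, 576 and 551 in the SUZ12-/- samples and 9.52 and 1.31 in the EZH2-/-/EZH1-/- samples. Both SUZ12-/- samples were close to each other for each of these genes. Conversely, NPPB, MYL7 and CDKN2A were lowest in the SUZ12-/- samples among the PRC2-null lines.

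Of the overlapping genes, 1502 lay above and 515 below once EZH2-/-/EZH1-/- H1 cells were left out. For SUZ12-/- these numbers were 774 and 397, for EZH1-/- 667 and 334, for EZH2-/- 366 and 517, for EED-/- 340 and 371, and for WT 326 and 233. The 5 overlapping genes with the largest mean difference were H19, MYL7, CTHRC1, SLX1B and SST. CTHRC1, a secreted matrix protein, was at 5.65 and 127 TPM in the EED-/- samples, 269 and 273 in the SUZ12-/- samples and 107 and 78.5 in the EZH2-/-/EZH1-/- samples, against 1.06 to 6.42 (median 2.75) TPM in the retaining samples. SST, somatostatin, was at 0.47 and 2.48 TPM in the EED-/- samples, 95.3 and 98.3 in the SUZ12-/- samples and 33.0 and 27.1 in the EZH2-/-/EZH1-/- samples, against 0 to 0.98 (median 0.76) TPM. In both genes the first EED-/- sample alone overlapped. SLX1B has a near-identical copy, SLX1A, and its value is uncertain.

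The single knockouts lay close to WT H1 cells in the widely separated genes. EZH1-/- minus WT had a median of 0.04 over the higher and -0.06 over the lower genes, beside 0.02 over all genes, and EZH2-/- minus WT had -0.01 and -0.08, beside -0.06. EZH1-/- exceeded WT by at least 1 in 38 of the 1433 higher genes (2.65%, beside 3.87% of all genes), and EZH2-/- in 15 (1.05%, beside 1.06%). On the lower side EZH2-/- was below WT by at least 1 in 18 of 594 (3.03%, beside 1.22% of all genes). The retaining lines took part in choosing these genes, so these values are a description. CDKN2A and BMI1, given above, were at higher values in both EZH2-/- H1 samples than in both WT H1 samples, a difference that was not tested.

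The DOX withdrawal series took no part in choosing the genes. With DOX the cells had 109 TPM of EED, transgene included if it is counted in this gene, and the series has 1 sample per time, so no test was made. Of the 1433 widely separated higher genes, 17.9% exceeded the DOX sample by at least 1 (log2) at day 8, 22.5% at day 12, 22.4% at day 16, 55.5% at day 20, 87.2% at day 24 and 96.4% (1382) at day 28. Over all genes tested the share at day 28 was 30.9%. Of the 594 lower genes, 7.24%, 2.02%, 12.8%, 38.0%, 81.6% and 88.2% (524) were below by at least 1 on these days, against 11.3% of all genes at day 28. Only 1 higher and 0 lower genes differed by at least 1 in the opposite direction at day 28. The median difference at day 28 was 3.0 in the higher, -2.18 in the lower and 0.38 in all genes. Most of the shift therefore fell between days 16 and 24.

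Single genes differed in their timing. CDKN2A was at 1.1 TPM with DOX, 22.3 at day 8, 31.1 at day 12, 46.4 at day 20 and 518 at day 28, and BMI1 at 3.14, 36.9, 43.1, 43.0 and 43.7. HOXA11 was at 0, 0, 0.33, 29.8 and 26.2 TPM at the same times, COL3A1 at 2.93, 0.92, 0.3, 2.84 and 1237, and POU5F1 at 2916, 2422, 3468, 1579.8 and 33.6. So CDKN2A and BMI1 stood above the DOX sample at day 8 and HOXA11 by day 20. COL3A1, still low at day 20, was at 2534 TPM at day 24, above its value at day 28. Of genes with high levels in SUZ12-/- H1 cells, AFP was at 7.94, APOA4 at 7.66, DCN at 10.4 and FGG at 0.84 TPM at day 28, whereas IGF2 was at 1446, APOA1 at 524 and TTR at 324 TPM. In all, 51 of the higher and 70 of the lower genes differed by less than 1 in that direction at day 28. Among them were FGB, the fibrinogen beta chain, at 0.18 TPM with DOX and 0.67 TPM at day 28, and JARID2, at 52.3 and 32.6 TPM.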

How the data were processed

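RNA-seq was made from 19 samples, of which 12 were compared. Per the study's methods, the authors made TruSeq RNA libraries, aligned reads to human mRNA sequences of GRCh38 with Bowtie and estimated levels with RSEM, and the submitters' processing notes name hg19 and hg38 too. The deposited values are TPM per gene, so reads are unknown and the edgeR count test that the study describes could not be run. limma 3.58.1 in R 4.3.3 was fitted to log2(TPM + 1) of 19100 of 33382 genes (TPM of at least 1 in 2 of 12 samples), with class as the effect, line as a random block (estimated correlation 0.41) and trended, robust variances. A gene was called at a fold of 3 or more with a p, adjusted by Benjamini-Hochberg over all genes, not above 0.01. No 2 samples held identical values.

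Named genes were the targeted genes, the 12 widest gaps in each direction, up to 4 members per list with the widest gaps and up to 2 that overlapped, the 5 most uneven across PRC2-null lines, the 5 overlapping genes with the largest difference, members of the longest runs, and the 6 highest genes at 0 in retaining samples, with uncharacterised loci left out. Genes named beside these, such as markers, were chosen after their values were seen. Genes named for a wide gap were chosen in the samples that the test used. Their adjusted p values are therefore no separate support. A few genes that the rule names are not reported here. The members and lists were chosen with earlier results of these data known. Coordinates are from GENCODE release 44 on GRCh38. The fit was tested on simulated data, and other filters, scalings, pseudocounts, references and omitted samples or lines were tried.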

Additional observations from a re-analysis of the deposited data

Results flagged for a closer look

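Dixon's test, which by chance picks about 1 in 20 groups of independent samples, was considered for 418 groups of 6 samples (209 named genes in each class). Groups with the same value in every sample could not be tested, and the samples come in pairs from the same line. So the number flagged cannot be set against that rate. In 28 groups 1 sample lay far from the other 5. Each value below is that sample's log2(TPM + 1). In the PRC2-null lines the first EED-/- sample was low for CTHRC1 (2.73), EED itself (3.93), GINS2 (1.35) and HLA-B (8.66), and high for HOTAIR (5.02) and HOXB4 (2.49). The second EZH2-/-/EZH1-/- sample was low for GATA2 (3.32), IGF2BP3 (2.36), MEIS2 (4.40), POSTN (7.51) and TERF1 (4.86), and the first was high for GATA3 (5.23). In the retaining lines the second EZH2-/- sample was high for CDKN2A (3.90), NPPB (1.73), TF (0.58), HOTAIRM1 (0.32) and HOXD11 (0.14), and low for USP44 (5.94). The first EZH2-/- sample was high for CGA (0.28), DLX5 (0.24) and GUCY1A3 (0.11). A WT sample was high for CRABP1 (8.45), SNAI1 (3.92), ALB (0.44), RSPO3 (0.44) and FAM198B (0.32), and an EZH1-/- sample for HOXC6 (0.11) and HOXA10 (0.10). Many of the retaining values are those of a gene near 0 TPM in which 1 sample had a trace.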

How the results depend on the processing

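Other filters, scalings, pseudocounts and treatments of the line kept the counts within 1.5 times, and leaving out 1 sample gave 2310 to 2666 genes higher and 892 to 989 lower, with 4706 to 5862 separating upward and 2585 to 2916 downward. With WT H1 cells alone as reference, 1356 genes were higher and 4003 separated downward, a setting that uses fewer samples. At an FDR of 5% with no fold threshold, there were 6210 genes higher in the PRC2-null lines and 3402 genes lower in the PRC2-null lines. The share of widely separated genes that moved with DOX withdrawal was 99.4% (higher) and 98.5% (lower) for any difference above 0 at day 28, and 87.2% and 81.6% for day 24. Median-ratio scaling gave 2159 higher and 1093 lower, so that 66.4% of calls were higher in place of 72.3%. No paired analysis was possible because the labels give clone or passage names and no replicate numbers shared between lines.

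Of 5016 values of 209 named genes under 24 alternatives, 4840 kept direction and side of the threshold, 97 in 31 genes lost the call, 57 in 19 genes gained one and 22 in 7 genes changed sign. Of the lost calls, 30 came with WT H1 cells alone, among them APOA4, DCN, FGG, MGP, PAX6 and SERPINA1. With line means, 3 lines against 3, 2225 genes were higher and 913 lower. In that fit APOA4 (adjusted p = 0.0216), CER1 (0.0102), DCN (0.034), FGG (0.0387), GUCY1B3 (0.0144) and MGP (0.0703) lost the call. So did MYL7 (0.0218), SERPINA1 (0.0123), SLX1B (0.0106), SST (0.0473), TBX20 (0.025) and UTF1 (0.0145). Leaving out a single sample lost the calls of ID2, MGP, CGA, TBX20, FGG and HOXB4. It gained a call for HMGA2, ALB, EVX2, H19, HOXA6, HOXD3, KRT5, PAX3, SALL1 and TAP2, and the cause was not tested. The sign changes were all in genes that did not pass. Without SUZ12-/- H1 cells DES was at -0.19 and MYH11 at 0.15. Without EZH2-/-/EZH1-/- H1 cells EZH1 was at 0.13, ID1 at -0.01, KDR at 0.21 and SUZ12 at 0.14. Without WT H1 cells ID1 was at -0.23, MYH11 at 0.05, SNAI1 at 0.03 and SUZ12 at 0.15. Without EZH1-/- H1 cells EZH1 was at 0.03 and KDR at 0.21, and SNAI1 was at 0.26 without EED-/- H1 cells. With WT H1 cells alone KDR was at 0.06. Single omitted samples gave 0.01 for EZH1, -0.40 to 0.21 for KDR, 0.03 to 0.10 for SNAI1, with 0.05 between, and -0.22 to 0.13 for SUZ12, with 0.02 and 0.07 between. The depth is unknown, so no interval could be set on values near 0 TPM.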
